A study of Mus musculus with 6 samples.

Results

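The genes described here are 7 ligands of the bone morphogenetic protein (BMP) and growth and differentiation factor (GDF) family: Bmp2, Bmp3, Bmp4, Bmp5, Bmp6, Bmp7 and Gdf10. They were taken by symbol from a table of 35415 genes, and all 7 were found in it. RNA was sequenced from whole mouse ovaries of 2 genotypes, 3 libraries of Rnf111+/- and 3 of wild type, each library named after its own mouse. All mice were 3 months old and in estrus. Rnf111+/- mice carry 1 disrupted copy of Rnf111, made by CRISPR-Cas9 editing to model human RNF111 variants linked to premature ovarian insufficiency. The study made more than 1 edited line, and the labels do not say which one was sequenced or give the strain. Rnf111 encodes Arkadia, an E3 ubiquitin ligase that removes brakes on SMAD signalling such as SMAD7.

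BMP ligands are secreted as dimers and bind a pair of receptor classes, type I and type II, on the target cell. For most BMP ligands, the activated type I receptor phosphorylates SMAD1, SMAD5 or SMAD9. These enter the nucleus with SMAD4 and switch on genes such as those of the ID family. In the ovary these ligands pass between theca, granulosa cells and the oocyte, and they modulate steroid output and follicle growth. By sequence the 7 fall into 3 classes: BMP2 with BMP4, BMP5 with BMP6 and BMP7, and BMP3 with GDF10, which is also called BMP3B.

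Library totals lay between 38261449 and 39474515 counts, so depth was nearly even. Values are given as counts and as CPM, counts scaled to library size by the TMM (trimmed mean of M values) method. Rnf111 itself averaged 44.6 ± 0.39 CPM in Rnf111+/- ovaries and 53.9 ± 0.48 CPM in wild-type ovaries (SD, n = 3 each), a log2 fold change of -0.27 (edgeR quasi-likelihood test, adjusted p = 0.04). Refitting with 1 library fewer ended this call in 5 of 6 cases (all but that without wild-type replicate 3), with adjusted p of up to 0.146. Upper-quartile scaling (0.0602) and no filter on low counts (0.0762) ended it too. Wild-type replicate 3 stood apart. The summed level of 5 oviduct epithelium markers was 168 CPM there, against 5.66 to 12.8 CPM in the other 5 libraries. The summed level of 8 granulosa markers was 2503 CPM there, against 4479 to 6761 CPM in the others. The luteal marker Akr1c18 was at 676 CPM there, against 86.1 and 66.7 CPM in wild-type replicates 1 and 2. Likewise, Ptgfr was at 454 CPM against 71.4 and 81.9 CPM, and Sfrp4 at 890 CPM against 178 and 268 CPM. In wild-type replicate 3 the luteal markers Lhcgr, Parm1 and Hsd3b1 were lower than in wild-type replicates 1 and 2. Values without that library are therefore given beside the ligand results it touches, and for some of the pathway genes. A whole-ovary library cannot tell fewer cells of a type from less RNA per cell.

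All 7 ligands were detected in all 6 libraries. The lowest count of any of them was 28, well above the 3 counts treated as the detection floor (0.0747 to 0.0784 CPM), and all 7 passed the filter on low counts. Bmp2 was the most abundant per length of exon in Rnf111+/- ovaries, at 19.8 ± 6.85 CPM per kb (SD, n = 3). It was followed there by Bmp6 at 11.3 ± 1.05, Bmp3 at 8.69 ± 2.32, Bmp7 at 2.97 ± 0.04, Bmp4 at 2.93 ± 0.45, Gdf10 at 1.16 ± 0.07 and Bmp5 at 0.27 ± 0.12 CPM per kb. In that order, the ranges of Bmp6 and Bmp3 overlapped, as did those of Bmp7 and Bmp4, and the other neighbours were separate. In wild-type ovaries the order was Bmp2 at 8.09 ± 2.25, Bmp6 at 8.0 ± 1.48, Bmp4 at 2.91 ± 0.40, Bmp3 at 2.77 ± 0.98, Bmp7 at 2.12 ± 0.51, Gdf10 at 2.07 ± 0.23 and Bmp5 at 0.19 ± 0.01 CPM per kb. There Bmp2 and Bmp6 overlapped, and so did each neighbouring pair from Bmp4 through Bmp3 and Bmp7 to Gdf10. Bmp3 thus held the third place in Rnf111+/- ovaries, apart from Bmp7 and Bmp4, and overlapped with Bmp4 in wild-type ovaries. These lengths come from an annotation of an earlier build than the one the counts were made on.

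**Figure D1:**
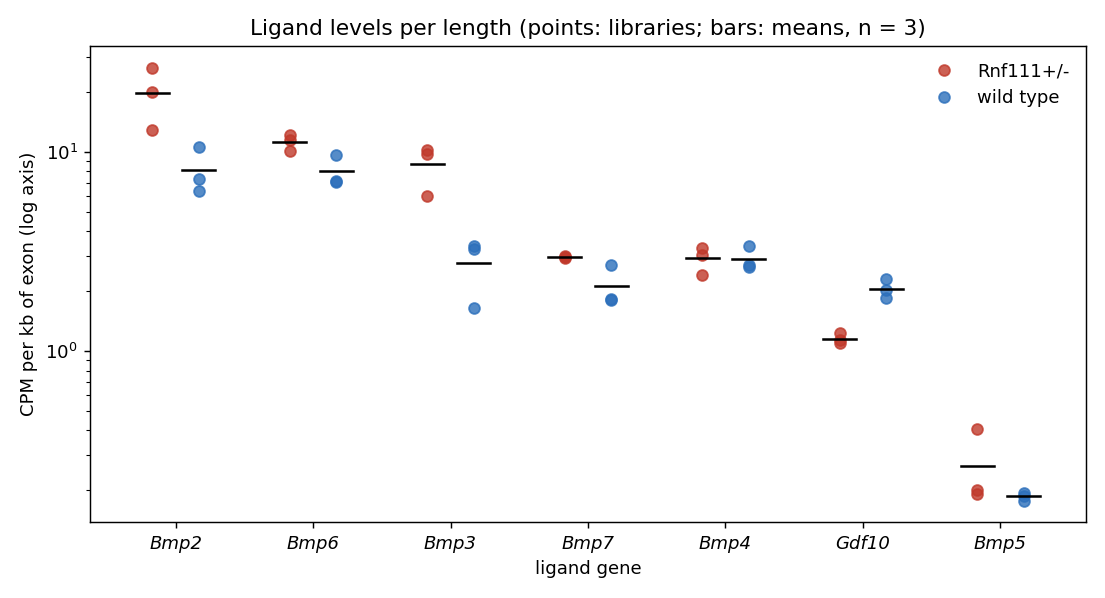
Ligand levels in CPM per kb of exon on a log axis, Rnf111+/- left of wild type for each gene, with 1 point per library and a bar at the mean (n = 3). Bmp2, Bmp6 and Bmp3 lead in Rnf111+/- ovaries, and Bmp5 lies lowest in both genotypes.

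In the comparison of genotypes, 2 of the 7 ligands passed edgeR's quasi-likelihood test at an adjusted p under 0.05. Bmp3 rose and Gdf10 fell in Rnf111+/- ovaries. Among all 16841 tested genes 9.64% were called, 3.9% as higher and 5.74% as lower. Over the 7 ligands the median log2 fold change was 0.50, against -0.008 over all tested genes. For 5 of the 7 the libraries of the genotypes did not overlap, with Rnf111+/- above for 4 and below for 1. The same held for 32% of all tested genes, with Rnf111+/- above for 15.1% and below for 16.9%. For each of these 5 ligands an exact two-sided permutation of the 6 log2 CPM values gave p = 0.1, the smallest that 3 against 3 allows.

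**Figure D2:**
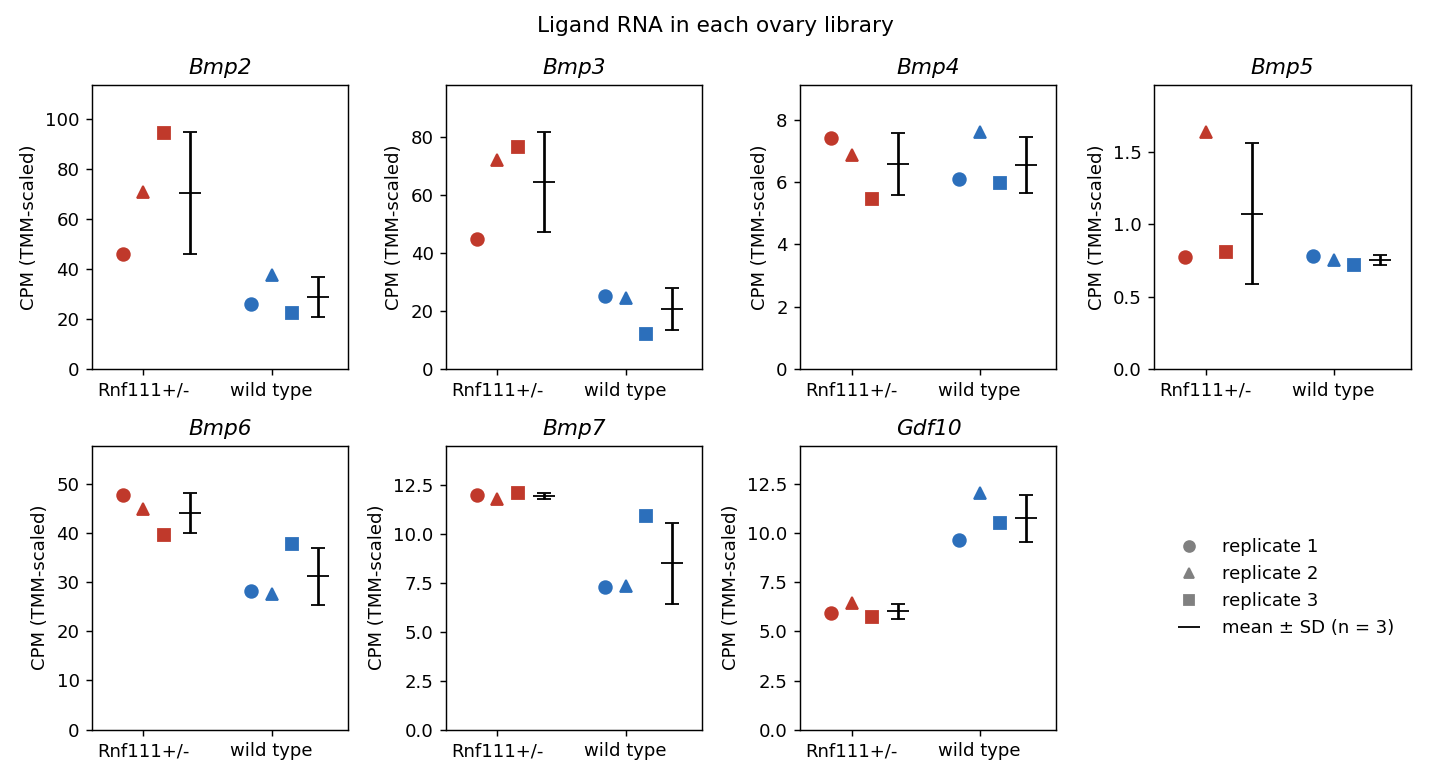
CPM of each ligand in each library, Rnf111+/- left and wild type right, with marker shapes for replicates and mean ± SD (n = 3) beside them; every axis starts at 0. Bmp2, Bmp3, Bmp6 and Bmp7 lie higher in all 3 Rnf111+/- libraries, Gdf10 lies lower in all 3, and Bmp4 and Bmp5 overlap.

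Bmp3 encodes an atypical member of the family that opposes bone formation by other BMPs. Its counts were 1793, 2821 and 2918 in Rnf111+/- libraries 1, 2 and 3, against 961, 936 and 475 in wild-type libraries 1, 2 and 3. The lowest wild-type value was that of replicate 3, where the granulosa markers were lowest too (their part was not tested), and the lowest Rnf111+/- library still held more than any wild-type library. Bmp3 averaged 64.3 ± 17.1 CPM in Rnf111+/- ovaries and 20.5 ± 7.25 CPM in wild-type ovaries (SD, n = 3 each). The log2 fold change was 1.65 ± 0.34 (SE), a 3.14-fold rise (edgeR adjusted p = 0.0346), and 2.51% of tested genes had a larger difference in either direction. Without wild-type replicate 3 the log2 fold change was 1.39 and passed (adjusted p = 0.0234), and it also passed without Rnf111+/- replicate 1 (0.0365). The call was lost without wild-type replicate 1 (adjusted p = 0.0684), wild-type replicate 2 (0.0791), Rnf111+/- replicate 2 (0.117) or Rnf111+/- replicate 3 (0.107), with a log2 fold change of 1.51 or more in each. With all libraries and no filter, its adjusted p was 0.118 and it did not pass.

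Gdf10, the closest relative of Bmp3, went the other way. It had 238, 252 and 219 counts in Rnf111+/- libraries 1, 2 and 3, against 371, 465 and 413 in wild-type libraries 1, 2 and 3. Replicates lay close together in both genotypes, with the highest library 1.13 times the lowest in Rnf111+/- ovaries and 1.24 times in wild-type ovaries, and wild-type replicate 3 lay between the other wild-type libraries. The mean was 6.03 ± 0.37 CPM in Rnf111+/- ovaries and 10.8 ± 1.2 CPM in wild-type ovaries (SD, n = 3 each). The log2 fold change was -0.84 ± 0.15 (SE, edgeR adjusted p = 0.0138), or 0.56 times the wild-type level. The fall passed without wild-type replicate 1 (adjusted p = 0.0298), wild-type replicate 3 (0.00671) or Rnf111+/- replicate 1 (0.0497). It missed the threshold without wild-type replicate 2 (0.0578), Rnf111+/- replicate 2 (0.0546) or Rnf111+/- replicate 3 (0.0662).

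Bmp2 is made by granulosa cells in the mouse, and with Bmp4 it forms the class that binds BMPR1A and BMPR1B most readily. Bmp2 counts were 1841, 2780 and 3620 in Rnf111+/- libraries 1, 2 and 3, against 993, 1459 and 884 in wild-type libraries 1, 2 and 3. All Rnf111+/- libraries lay above all wild-type libraries, but the Rnf111+/- libraries differed among themselves by 2.06 times. The mean was 70.5 ± 24.4 CPM in Rnf111+/- ovaries and 28.8 ± 8.01 CPM in wild-type ovaries (SD, n = 3 each). The log2 fold change of 1.29 ± 0.31 (SE) just missed the threshold (edgeR adjusted p = 0.0556). It passed without Rnf111+/- replicate 1 (1.53, adjusted p = 0.0295), and did not in the other 5 fits with 1 library left out (adjusted p from 0.0592 to 0.16). Without wild-type replicate 3 it was 1.15. It also passed with DESeq2 (adjusted p = 6.28e-06), limma-voom (0.0344), upper-quartile scaling (0.0486) and a stricter filter (0.0412), and not with DESeq2's size factors in edgeR (0.0549) or without a filter (0.172).

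Bmp4, which theca cells make in the rat, had means that differed by less than its spread. Its counts were 297, 269 and 209 in Rnf111+/- libraries 1, 2 and 3, against 234, 293 and 233 in wild-type libraries 1, 2 and 3. The groups overlapped, at 6.58 ± 1.0 CPM in Rnf111+/- ovaries and 6.55 ± 0.91 CPM in wild-type ovaries (SD, n = 3 each). The log2 fold change was 0.01 with an interval of 2 standard errors from -0.37 to 0.38 (edgeR adjusted p = 0.989), which leaves room for a change smaller than that in either direction.

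Bmp6 and Bmp7 belong to the class that signals largely through the type I receptor ACVR1. Bmp6 is known from oocytes as well as granulosa cells in the mouse, and Bmp7 from theca cells in the rat. Bmp6 had 1911, 1756 and 1515 counts in Rnf111+/- libraries 1, 2 and 3, against 1076, 1067 and 1481 in wild-type libraries 1, 2 and 3. The lowest Rnf111+/- library was at 39.6 CPM, against 37.8 CPM in wild-type replicate 3 and no more than 28.1 CPM in the other wild-type libraries. The mean was 44.0 ± 4.08 CPM in Rnf111+/- ovaries and 31.2 ± 5.75 CPM in wild-type ovaries, a log2 fold change of 0.50 ± 0.14 (SE, n = 3 each, edgeR adjusted p = 0.0552). Without wild-type replicate 3 it was 0.67 and passed (adjusted p = 0.00114), and it did not pass in the other 5 fits with 1 library left out (0.0971 to 0.171). With all libraries it passed with DESeq2 (0.0114), upper-quartile scaling (0.0499) and no filter on low counts (0.0208), and not with limma-voom (0.054), a stricter filter (0.0553) or DESeq2's size factors in edgeR (0.0537).

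Bmp7 was the ligand with the least spread among Rnf111+/- libraries, which held 481, 461 and 462 counts in libraries 1, 2 and 3. The wild-type libraries 1, 2 and 3 held 280, 283 and 427 counts, so here too replicate 3 lay near the Rnf111+/- level. The mean was 11.9 ± 0.15 CPM in Rnf111+/- ovaries and 8.52 ± 2.07 CPM in wild-type ovaries (SD, n = 3 each). The log2 fold change was 0.49 ± 0.18 (SE) and did not pass (edgeR adjusted p = 0.135). Without wild-type replicate 3 it was 0.72 and passed (adjusted p = 0.00672). That library was thus the highest of the wild type for Bmp6 and Bmp7 and the lowest for Bmp2 and Bmp3. Against the mean of the other wild-type libraries, its log2 ratio was 0.44 for Bmp6, 0.57 for Bmp7, -0.50 for Bmp2 and -1.02 for Bmp3.

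Bmp5, the gene altered in short-ear mice, was the scarcest of the 7. Rnf111+/- libraries 1, 2 and 3 held 31, 64 and 31 counts, and wild-type libraries 1, 2 and 3 held 30, 29 and 28. The wild-type libraries were nearly equal, and a single library, Rnf111+/- replicate 2, set the difference in means. The log2 fold change was 0.51 ± 0.41 (SE, edgeR adjusted p = 0.487), and it was 0.09 without Rnf111+/- replicate 2.

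**Figure D3:**
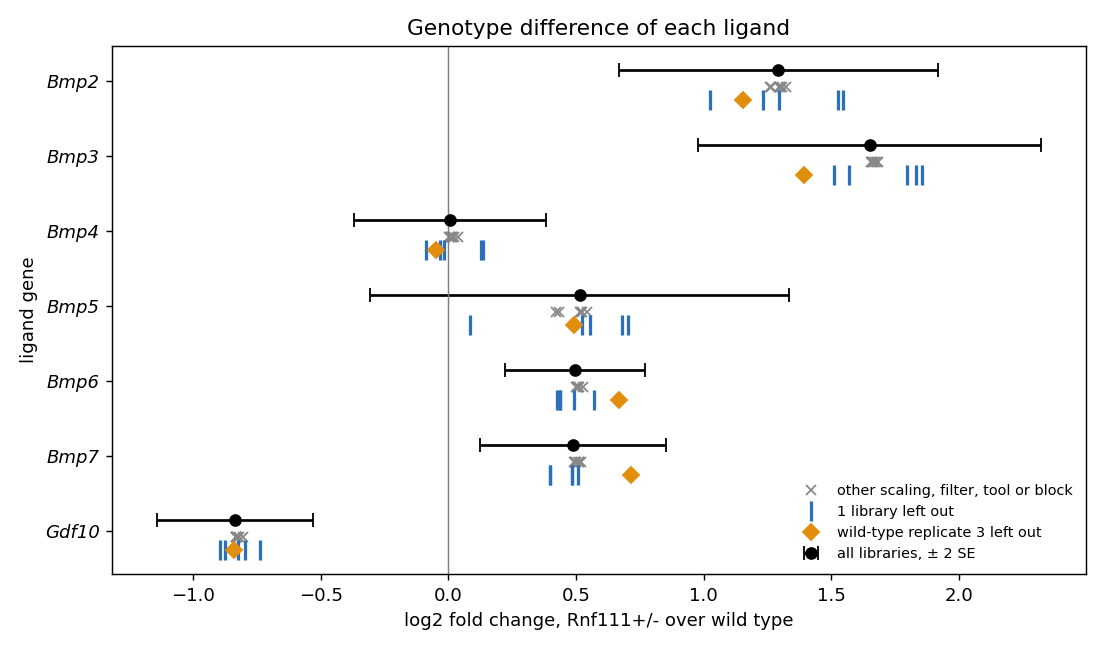
Log2 fold change of each ligand, Rnf111+/- over wild type: black points with bars of 2 SE are the fit of all libraries, grey crosses are other scalings, filters, tools or the block, and blue ticks and orange diamonds are fits with 1 library left out. Bmp3 and Bmp2 lie above 1 in every fit drawn, Gdf10 lies below 0 in every fit drawn, and leaving out wild-type replicate 3 moves Bmp6 and Bmp7 up and Bmp2 and Bmp3 down.

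Taking the 7 ligands together per length, their summed level was 38.7, 48.8 and 53.8 CPM per kb in Rnf111+/- libraries 1, 2 and 3, against 24.5, 28.7 and 25.3 CPM per kb in wild-type libraries 1, 2 and 3. Bmp2 made up 41.2 ± 8.09% of it in Rnf111+/- ovaries and 30.7 ± 6.0% in wild-type ovaries (SD, n = 3 each), and these shares overlapped between single libraries. Bmp3 made up 18.2 ± 2.32% in Rnf111+/- ovaries and 10.6 ± 3.75% in wild-type ovaries. Gdf10 made up 2.50 ± 0.45% in Rnf111+/- ovaries and 7.89 ± 0.26% in wild-type ovaries. Bmp4 held 6.42 ± 1.99% in Rnf111+/- ovaries and 11.1 ± 0.64% in wild-type ovaries. Shares add to 100, so a larger share of 1 ligand lowers those of the others, and they are given as a description.

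**Figure D4:**
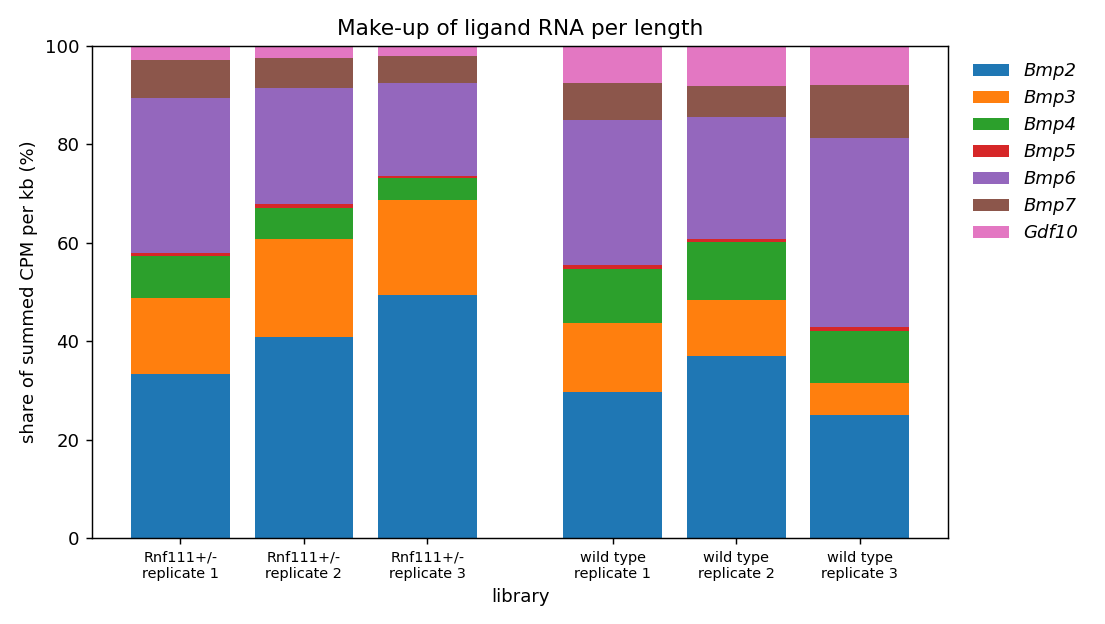
Share of each ligand in the summed CPM per kb of the 7 (%), 1 bar per library, Rnf111+/- left of wild type. The Bmp3 part is larger in every Rnf111+/- library (15.6% or more) than in any wild-type library (13.9% or less), and the Gdf10 part is smaller.

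Sequence just before the gene start was looked up for the members in a RefSeq table of build GRCm38.p6, which held 4 of the 7 (Bmp4, Bmp5, Bmp6 and Gdf10). Bmp6 and Gdf10 are shown because their libraries separated by genotype in opposite directions. Each line gives the 250 bases before the start, 5′ to 3′ on the plus strand, at chr13:38345466-38345715 for Bmp6 and chr14:33923337-33923586 for Gdf10, with capitals at CAGAC, a core of the SMAD binding element.
Bmp6: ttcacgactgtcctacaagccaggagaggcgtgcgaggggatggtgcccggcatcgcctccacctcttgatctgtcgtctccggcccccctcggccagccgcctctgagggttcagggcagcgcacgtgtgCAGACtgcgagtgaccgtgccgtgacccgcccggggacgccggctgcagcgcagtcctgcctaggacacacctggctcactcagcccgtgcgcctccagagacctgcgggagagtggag
Gdf10: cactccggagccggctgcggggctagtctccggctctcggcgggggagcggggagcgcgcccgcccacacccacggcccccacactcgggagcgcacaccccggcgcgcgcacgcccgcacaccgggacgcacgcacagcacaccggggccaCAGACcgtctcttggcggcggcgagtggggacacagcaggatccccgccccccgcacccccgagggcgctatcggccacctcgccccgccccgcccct
CAGAC was found once in each window, starting at base 132 for Bmp6 and at base 153 for Gdf10, and once in that of Bmp5 on the other strand, but not in that of Bmp4. On either strand it occurs in 42.2% of the 32851 windows of the same length in the table. GGCGCC, a GC-rich core bound by SMAD1 and SMAD5, was searched on both strands as well and was in none of the 4 windows, against 9.59% of all. TGACGTCA, TATAAA and CCAAT were not in these 4 windows either. The Bmp6 window was 68.8% G and C and that of Gdf10 78.8%, against a median of 52.4% over the table, and the windows of Bmp4 and Bmp5 had 63.2% and 42.8%.

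Overlapping genes could add to or take from the counts of 3 ligands, because the strand setting of the counting is not given in the sources used here. In the GENCODE annotation, Bmp6 shares 224 of its 3900 exonic bases with Txndc5 on the opposite strand. Txndc5 is an abundant gene, at 423 ± 29.9 CPM in Rnf111+/- ovaries and 411 ± 47.4 CPM in wild-type ovaries (log2 fold change 0.04, edgeR adjusted p = 0.834), so it showed no call of its own. Bmp5 shares 1878 of 4025 exonic bases with the antisense gene Gm26903. That gene is not among the counted genes, so its level is not known here. Its reads could not be told apart from the 28 to 64 counts of Bmp5 per library. Bmp4 shares 89 of 2248 exonic bases with Gm15217, which had no count. How far these overlaps entered the counts was not tested.

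The rest of the pathway was described through lists of related genes. The counts of calls in them stand beside 9.64% of all tested genes called, 3.9% as higher and 5.74% as lower. The lists are short, and no list was tested as a set. Of the other 14 BMP and GDF ligands, 6 were tested and 2 rose, both oocyte factors. Gdf9 rose by 0.63 ± 0.10 and its partner Bmp15 by 0.54 ± 0.13 on the log2 scale (SE, edgeR adjusted p = 0.00707 and 0.0356). Gdf6, at 1.17 ± 0.48 CPM in Rnf111+/- ovaries and 0.40 ± 0.20 CPM in wild-type ovaries, did not pass (adjusted p = 0.111), nor did Gdf11 (-0.27, adjusted p = 0.307). Leaving out 1 library ended the call of Bmp15 in 4 of 6 cases (without wild-type replicate 2 or any Rnf111+/- library), with adjusted p of up to 0.144.

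Among the 7 BMP receptors, 2 fell and 5 did not pass, with a median log2 fold change of 0.18. Acvr1, the type I receptor most used by BMP6 and BMP7, averaged 47.5 ± 2.58 CPM in Rnf111+/- ovaries and 75.5 ± 13.9 CPM in wild-type ovaries (SD, n = 3 each). Its log2 fold change was -0.67 ± 0.13 (SE, edgeR adjusted p = 0.0152), and the call was lost without any 1 of the Rnf111+/- libraries (adjusted p of up to 0.0804). Without wild-type replicate 3 the fall of Acvr1 was smaller, at -0.50, and passed (adjusted p = 0.00155). Acvrl1, the endothelial type I receptor, fell by 0.38 on the log2 scale at the edge of the threshold (adjusted p = 0.0499), and the call was lost in 5 of 6 fits with 1 library left out (all but that without wild-type replicate 3), with adjusted p of up to 0.195. Bmpr1b, a type I receptor of granulosa cells and oocytes that BMP2 binds, was at 210 ± 27.4 CPM in Rnf111+/- ovaries and 87.2 ± 33.2 CPM in wild-type ovaries. Its log2 fold change of 1.27 ± 0.31 did not pass (adjusted p = 0.0602), nor did that of the type II receptor gene Bmpr2 (0.81 ± 0.23, adjusted p = 0.0767). Without wild-type replicate 3 both passed, Bmpr1b at 0.99 (adjusted p = 0.000162) and Bmpr2 at 0.62 (0.0393). For the 6 coreceptor genes edgeR gave 0 calls, DESeq2 also gave 0, and 0 had an unadjusted p under 0.05.

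Secreted antagonists and modulators, which bind BMPs outside the cell, had 2 rises and 2 falls among 13 tested. Chrdl1, a chordin-like BMP binder, averaged 10.8 ± 2.17 CPM in Rnf111+/- ovaries and 4.34 ± 0.51 CPM in wild-type ovaries (log2 fold change 1.32 ± 0.20 SE, edgeR adjusted p = 0.00634). Grem1, the gremlin gene of granulosa cells, rose by 5.46 ± 0.41 on the log2 scale (SE, edgeR adjusted p = 0.000589). It had 1215, 681 and 773 counts in Rnf111+/- libraries 1, 2 and 3, against 24, 27 and 8 in wild-type libraries 1, 2 and 3. The size of its fold thus rests on a low wild-type level. The calls of Chrdl1 and Grem1 held in all 6 fits with 1 library left out. Chrd, which encodes chordin and binds BMP2, BMP4 and BMP7, averaged 1.4 ± 0.59 CPM in Rnf111+/- ovaries and 4.14 ± 0.34 CPM in wild-type ovaries (-1.58 ± 0.32, adjusted p = 0.0204). Bmper, another BMP-binding protein of the chordin type, fell by 1.46 on the log2 scale (adjusted p = 0.0303). The call of Chrd was lost in 4 of these fits (without wild-type replicates 1 or 2 or Rnf111+/- replicates 1 or 3), with adjusted p of up to 0.0763. That of Bmper was lost in 5 (all but that without Rnf111+/- replicate 1), with adjusted p of up to 0.103. Fstl3, at 6.90 ± 1.13 CPM in Rnf111+/- ovaries and 13.6 ± 5.22 CPM in wild-type ovaries, did not pass (log2 fold change -0.98, edgeR adjusted p = 0.0542). Without wild-type replicate 3 its log2 fold change was -0.61 and passed (adjusted p = 0.0372). Nog, the noggin gene, was at 1.71 ± 0.53 CPM in Rnf111+/- ovaries and 0.91 ± 0.05 CPM in wild-type ovaries and did not pass (adjusted p = 0.133).

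BMP precursors are cut by proprotein convertases, and BMP1-like proteases cleave chordin. Of 7 such genes, 2 fell and 5 did not pass. Pcsk5, a proprotein convertase gene, averaged 51.5 ± 7.16 CPM in Rnf111+/- ovaries and 149 ± 43.1 CPM in wild-type ovaries (log2 fold change -1.53 ± 0.22 SE, edgeR adjusted p = 0.00967), a call that held in all 6 fits with 1 library left out. Tll2, a tolloid-like protease gene, had 9, 6 and 7 counts in Rnf111+/- libraries, against 101, 79 and 17 in wild-type libraries (adjusted p = 0.0243). Its call held only without wild-type replicate 3 among those fits (adjusted p of up to 0.107 in the others).

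Inside the cell, 1 of 6 BMP SMAD genes rose and 5 did not pass. It was Smad7, an inhibitory SMAD, at 41.9 ± 5.19 CPM in Rnf111+/- ovaries and 30.9 ± 1.87 CPM in wild-type ovaries (log2 fold change 0.44 ± 0.11 SE, edgeR adjusted p = 0.0398). Smad4, the shared partner, was at 0.25 ± 0.07 (adjusted p = 0.0619). Of 13 tested BMP target genes, Smad7 included, 1 rose, 2 fell and 10 did not pass. Id2 averaged 65.1 ± 5.98 CPM in Rnf111+/- ovaries and 183 ± 18.0 CPM in wild-type ovaries (-1.49 ± 0.10, adjusted p = 0.00015), and the call held in all 6 fits with 1 library left out. Runx2, a transcription factor gene, fell by 1.34 on the log2 scale (adjusted p = 0.0257). The calls of Smad7 and Runx2 were each lost in 4 of these fits, with adjusted p of up to 0.141 and 0.107. For Smad7 these were the fits without wild-type replicates 1 or 2 or Rnf111+/- replicates 2 or 3, and for Runx2 those without wild-type replicate 1 or any Rnf111+/- library. Among the 10 that did not pass, Msx2 and Smad6 had the smallest p. Msx2 was at 0.43 ± 0.20 CPM in Rnf111+/- ovaries and 0.10 ± 0.04 CPM in wild-type ovaries (2.03 ± 0.63, edgeR adjusted p = 0.0808). Smad6 was at 0.36 ± 0.14 on the log2 scale (adjusted p = 0.158). Log2 fold changes were above 0 for 8 of the 13 targets. Id1 and Id3 were chosen after their values were seen, as the ID genes most used to read BMP activity. They were at 0.12 ± 0.18 and 0.12 ± 0.10 on the log2 scale and did not pass (adjusted p = 0.735 and 0.475).

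**Figure D5:**
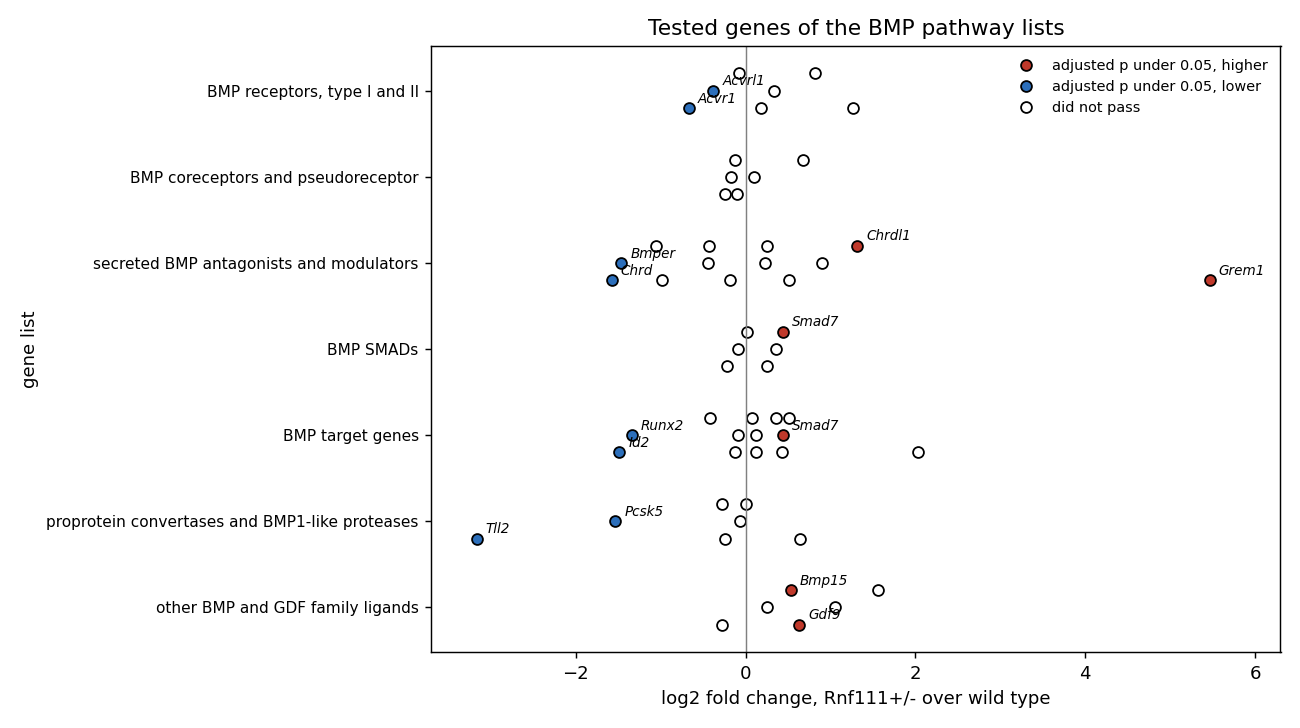
Log2 fold change, Rnf111+/- over wild type, of each tested gene in the 7 pathway lists, 1 point per gene, filled red where it rose, blue where it fell and white where it did not pass edgeR's test. Called genes lie on both sides of 0 for the antagonists and the target genes.

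The genes whose level followed each ligand most closely over the 6 libraries were found by the root-mean-square difference of centred log2 CPM, among 13359 tested genes that averaged 1 CPM or more. For Bmp2 they were Nr0b1 (0.13), Fos (0.20) and Greb1l (0.21 log2 units), where Bmp2 itself varied by 0.74. For Bmp3 they were Zfp385b (0.14), Arhgef28 (0.14) and Slc25a35 (0.20), against 0.94 for Bmp3 itself. For Gdf10 they were Flrt1 (0.05), Palm (0.06) and D16Ertd472e (0.07), against 0.43. The nearest genes were H2az1, Cds1 and Galnt17 for Bmp6, Entpd1, Zc4h2 and Spsb1 for Bmp7, Alad, Mios and Pitpnm1 for Bmp4, and Scml2, Rasgef1b and Pcdhga1 for Bmp5. With 6 libraries and so many genes, near matches are to be found for almost any pattern, and these are given as a description.

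Markers of the cell types in the ovary also differed between the genotypes. Of 9 oocyte markers, Gdf9 and Bmp15 among them, 7 rose, and their summed level was 201 to 260 CPM in Rnf111+/- libraries, against 139 to 157 CPM in wild-type libraries. Of 8 granulosa markers 1 rose, at a summed 4479 to 6761 CPM in Rnf111+/- libraries, against 2503 to 5793 CPM in wild-type libraries. Of 6 theca markers 1 rose, at a summed 4002 to 5770 CPM against 5057 to 6512 CPM in wild-type libraries. Most of that sum was Cyp11a1, at 4415 CPM in Rnf111+/- ovaries and 5570 CPM in wild-type ovaries (edgeR adjusted p = 0.215). The marker that rose was Cyp17a1, at 197 ± 54.1 CPM against 2.81 ± 1.53 CPM in wild-type ovaries (log2 fold change 6.13, adjusted p = 0.00173). Log2 fold changes were above 0 for 5 of the 6 theca markers. Of 6 luteal markers 2 fell, Parm1 and Hsd3b1. The summed level was 8577 to 11188 CPM, against 6206 to 7350 CPM in wild-type libraries. Akr1c18 averaged 2420 CPM in Rnf111+/- ovaries and 276 CPM in wild-type ovaries. In the same order, Sfrp4 averaged 2616 and 445 CPM, and Ptgfr 699 and 202 CPM. These 3 lay higher in all Rnf111+/- libraries and did not pass edgeR's test (adjusted p = 0.153, 0.0972 and 0.268). Lhcgr overlapped and did not pass. DESeq2 called 2 luteal markers as higher and 2 as lower. Falls numbered 3 of 6 for stroma (918 to 1070 CPM in Rnf111+/- libraries, against 1413 to 1589 CPM in wild-type libraries), 2 of 5 for smooth muscle (637 to 857 CPM against 1037 to 1342 CPM in wild-type libraries) and 3 of 5 for endothelium (208 to 241 CPM against 282 to 347 CPM in wild-type libraries). They numbered 4 of 6 for surface epithelium (297 to 336 CPM against 425 to 442 CPM in wild-type libraries). Macrophage markers lay at 218 to 286 CPM against 204 to 293 CPM in wild-type libraries, and adipocyte markers at 21.4 to 32.9 CPM against 9.68 to 39.6 CPM in wild-type libraries. Every marker had counts in at least 1 library. The oviduct epithelium marker Dynlrb2 had 0 counts in Rnf111+/- replicate 3, lay at or under the detection floor in 3 libraries and was not tested. The summed levels of oocyte and of luteal markers were higher in all Rnf111+/- libraries than in any wild-type library, though the luteal markers that passed had fallen. Bmp2, Bmp3, Bmp6 and Bmp7 lay above in the same way, as did 15.1% of all tested genes. Summed levels of stroma, smooth muscle, endothelium and surface epithelium markers were lower in all Rnf111+/- libraries, as were Gdf10 and 16.9% of all tested genes. Over all tested genes, 3.9% were called as higher and 5.74% as lower. The part of these markers in the ligand results was not tested.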

How the data were processed

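The authors deposited 1 table of raw read counts per gene symbol, with 1 column for each of the 6 libraries, and 0 columns lacked a sample. The submitters' processing notes name fastp (0.20.1), HISAT2 (2.1.0), HTSeq (0.11.2), DESeq2 (1.38.3) and build GRCm39, and give no roles, annotation or strand setting. From the deposited counts, edgeR (4.0.16, R 4.3.3) removed low genes with filterByExpr (minimum count 10, minimum total 15), scaled by TMM and fitted all 6 libraries by robust quasi-likelihood, with genotype alone in the design. P-values of the 16841 tested genes were adjusted together (Benjamini-Hochberg) and called under 0.05. A standard error is the size of the log2 fold change over the root of F. CPM per kb uses exon-union lengths from GENCODE M21 (build GRCm38), which holds all 7 symbols. The detection floor of 3 counts and counting precision cover counting error only.

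On counts simulated from these libraries over 16841 genes, the test recovered 69% of genes changed by 1 and 83% of genes changed by 2 on the log2 scale. Each size held 100 changed genes, and 17 genes simulated without a change were called falsely. The simulation drew each gene on its own around 1 mean per genotype, with no library that stood apart as wild-type replicate 3 did. It therefore does not measure recovery with such a library present. The closest pair of libraries, wild-type replicates 1 and 2, differed by more than sampling noise (chi-square over degrees of freedom 11.8), so each library counted as separate. Members, lists and tests were chosen with earlier results of these data known. Named genes are the 7 members, Rnf111, every called gene of 7 pathway lists and up to 2 more of smallest p per list. Id1, Id3, Cyp11a1, Cyp17a1, the luteal markers, Dynlrb2 and genes that overlap a member are named as well. So are the 3 genes nearest in pattern to each member (mean of 1 CPM or more, Gm and Rik symbols left out). Alternatives were DESeq2's size factors and upper-quartile scaling, no filter beyond 1 count, a stricter filter (50 counts in total and 1 CPM in 3 libraries), DESeq2 (1.42.0), limma-voom (limma 3.58.1), the replicate number as a block and leaving out each library.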

Additional observations from a re-analysis of the deposited data

How the results depend on the processing

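The number of called genes was 1623, with 657 higher and 966 lower. DESeq2 called 2543, with 1130 higher. With 1 library left out it ranged from 530 (without Rnf111+/- replicate 2) to 2795 (without wild-type replicate 3), with 224 to 1273 higher and 297 to 1522 lower. Of the other fits with 5 libraries, that without Rnf111+/- replicate 3 gave 557, and those without wild-type replicates 1 and 2 and Rnf111+/- replicate 1 gave 865, 826 and 859. Ligands called as higher numbered 3 with DESeq2 and upper-quartile scaling, 2 with limma-voom and the stricter filter, and 0 to 3 with 1 library left out. Without a filter the count stayed at 1, but it was Bmp6 that passed and not Bmp3. Ligands called as lower numbered 1 in all fits of 6 libraries, and 0 to 1 with 1 library left out (0 without wild-type replicate 2 or Rnf111+/- replicates 2 or 3). Gdf10 passed in all 7 alternatives that kept all libraries, with log2 fold changes from -0.90 to -0.74 when 1 was left out.

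Bmp2 passed at 1.30 with DESeq2, 1.26 with limma-voom, 1.31 with the stricter filter and 1.32 with upper-quartile scaling, and ranged from 1.02 to 1.55 with 1 library left out. Bmp3 lost its call without a filter (1.65, adjusted p = 0.118) and ranged from 1.39 to 1.86. Bmp6 passed with DESeq2 (0.51), no filter (0.50) and upper-quartile scaling (0.53), and ranged from 0.43 to 0.67. Bmp7 ranged from 0.40 to 0.72, and Bmp4, which has no call in any fit, from -0.087 to 0.13. Bmp5 did not enter the stricter filter. Id1 ranged from -0.010 to 0.28. Of the pathway genes, fits of all libraries ended the calls of Bmper and Runx2 without a filter (adjusted p = 0.102 and 0.0933), of Tll2 and Smad7 with limma-voom (0.114 and 0.0502), and of Acvrl1 in 5 of 7 alternatives (up to 0.0649). Bmpr1b and Bmpr2 passed with DESeq2 (0.00603 and 0.000522) and limma-voom (0.0231 and 0.0453). Fits with 1 library less have fewer samples, and the cause of these moves was not tested.

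Same-numbered libraries of the genotypes shared little: their deviations correlated at 0.012, 0.0057 and 0.10 for numbers 1, 2 and 3, and only those numbered 3 were nearest to their own number. With the replicate number as a block, 1626 genes were called, 1348 of them shared, and 0 ligands passed edgeR as higher (Bmp3 1.67, adjusted p = 0.104), while Gdf10 passed. Bmp2 (adjusted p = 0.0775) and Bmp6 (0.0902) did not pass with the block, and it ended the calls of Rnf111 (0.0653), Runx2 (0.0709) and Acvrl1 (0.0588). Bmp5 had 28 to 64 counts per library, the lowest of the 7.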
